A study of Homo sapiens with 6 samples.

Results

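The comparison set 4 libraries with an siRNA against NEK6 or NEK7 beside 2 libraries with control siRNA, in a pair of human pancreatic cancer cell lines, and followed the genes whose level differed from control in the same direction with both siRNAs in both lines. All 6 libraries of the series entered it: CFPAC with control, NEK6 and NEK7 siRNA, and KP3 with the same 3 siRNAs. Each line had 1 control library, and each combination of line and knockdown was also sequenced once. Of 33097 gene records, the 14582 with an FPKM (fragments per kilobase of transcript, scaled to library size) of at least 1 in any library were examined. Both control libraries are titled as control siRNA, while their genotype and treatment tags read WT, and no untransfected library was compared here. The siRNA sequences, the number of siRNAs per target, the dose and the time after transfection were not given in the sources used here.

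NEK6 and NEK7 are short, closely related serine/threonine kinases of the NIMA family. Both are switched on in mitosis downstream of NEK9 and act in spindle assembly and cytokinesis. NEK7 is also a partner of NLRP3, the sensor that assembles an inflammasome and so leads to caspase-1 activity, release of interleukin-1 family cytokines and gasdermin pores. CFPAC and KP3 are established lines, and the series addresses NEK7 and pyroptosis, this lytic cell death, in pancreatic cancer.

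Library totals ran from 59478910 to 66067379 counts, and 11724 to 12062 genes per library had an FPKM of at least 1. The share of counts on mitochondrially encoded genes was 15.2% to 17.9% in the CFPAC libraries and 11.4% to 13.6% in those of KP3. The 9 ductal and epithelial markers examined were all above an FPKM of 1 in some library, with a summed FPKM of 603 to 721 in CFPAC and 1338 to 1471 in KP3. Acinar and endothelial marker lists had summed FPKM of at most 0.119 and 0.221, and among the 5 immune markers PTPRC and CD3E stayed at or below 0.127. CD14 was at 5.26, 6.30 and 6.10 FPKM in the CFPAC control, NEK6 and NEK7 siRNA libraries and LYZ at 2.89, 2.74 and 1.96, while neither was above 0.236 in KP3. CD68, which is not restricted to immune cells, was at 47.5 in the CFPAC control and 75.9 and 73.5 in the CFPAC knockdown libraries, against 68.9 to 76.9 in KP3. The 6 fibroblast markers summed to 110 FPKM in the CFPAC control and to 151 and 161 in its NEK6 and NEK7 siRNA libraries, mostly LUM at 96.8, 137 and 143, while KP3 stayed between 8.58 and 9.51. What these markers contribute to the gene differences was not tested. In bulk RNA, fewer cells of a kind and less RNA per cell cannot be told apart.

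Each target was lowest in the libraries of its own siRNA. NEK6 was at 15.2 FPKM in the CFPAC control, 4.09 with NEK6 siRNA and 14.2 with NEK7 siRNA. In KP3 it was at 21.3, 6.98 and 22.4 in the same order. The NEK6 siRNA libraries thus held 26.9% and 32.8% of the control level, and the NEK7 siRNA libraries 93.4% and 105%. NEK7 was at 14.8, 18.0 and 2.40 FPKM in CFPAC and at 14.7, 12.4 and 5.79 in KP3, so its own siRNA left 16.2% and 39.5% while NEK6 siRNA libraries were at 121% and 84.4%. Taken as either knockdown against control, neither target therefore separates the arms. The edgeR log2 fold change was -0.66 for NEK6 and -0.62 for NEK7, with Benjamini-Hochberg adjusted p of 0.870 and 0.905.

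No gene passed the test of either NEK siRNA against control. edgeR's quasi-likelihood F test on counts, with cell line as a block, called 0 of 14582 genes (0%) at an adjusted p of 0.05. At an unadjusted p under 0.05 it gave 881 genes (6.04%), 528 higher (3.62%) and 353 lower (2.42%) after knockdown. DESeq2, run on the same design, called 164 genes (1.12%), 109 higher (0.747%) and 55 lower (0.377%). Counts of this design were simulated in 3 runs with 200 genes changed in each. Summed over the 3 runs, DESeq2 made many more false calls than edgeR, 228 against 25. These sums are not on the scale of the 164 calls from the single real data set. For both tools this was more than an adjusted p of 0.05 allows. DESeq2 calls and small p-values are therefore given as a second tool's output and not as tested changes. Over the same 3 runs edgeR detected only 2 genes out of 205 with simulated 1.5-fold differences, and 32 out of 186 with 2-fold ones. At 4-fold it detected 165 out of 209. The edgeR count of 0 thus says little about differences near 1.5-fold or 2-fold. The p-values measure only the spread among these 6 libraries, which sums differences between the siRNAs and between the lines, and the biological coefficient of variation was 28.4%. Both siRNAs of a line were compared with its single control library, so a property of that library and an effect of knockdown cannot be told apart in any gene below.

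Across the 4 differences of log2(FPKM + 1), each knockdown minus the control of its own line, 2180 genes (14.9%) were higher in all 4 and 1740 (11.9%) lower in all 4. At least 1.5-fold differences on this scale in all 4 were found for 43 genes (0.295%), 23 higher (0.158%) and 20 lower (0.137%). In 18 of the 23 the FPKM of every knockdown library lay above both controls, which held for 480 of all genes (3.29%), and in 15 of the 20 every knockdown library lay below both controls, against 335 genes (2.3%). The 23 and 20 genes were chosen on these same FPKM values, so their separation follows in large part from the choice and is no separate support. Close to the 1.5-fold limit, a log2 difference of 0.585, B4GALT1 and NOLC1 had a smallest difference of 0.60 and 0.59, and RPPH1 and MESD just missed it at 0.584 and 0.58. On the lower side CRIM1-DT and PRICKLE4 were inside at -0.62 and LRRC8D just outside at -0.584.

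Single libraries held many more such genes. With NEK6 siRNA, 548 genes were at least 1.5-fold higher (3.76%) and 688 lower (4.72%) than control in CFPAC, and 710 (4.87%) and 644 (4.42%) in KP3. With NEK7 siRNA, 672 were higher (4.61%) and 703 lower (4.82%) in CFPAC, and 700 (4.8%) and 714 (4.9%) in KP3. Both siRNAs gave 255 genes at least 1.5-fold higher in CFPAC (1.75%) and 231 in KP3 (1.58%), and the 23 shared ones made up 9.02% and 9.96% of those lists. On the lower side, 20 were shared of 260 in CFPAC (1.78%) and 208 in KP3 (1.43%), which is 7.69% and 9.62%. Another 5 genes were higher with both siRNAs in CFPAC and lower with both in KP3, and 14 were lower in CFPAC and higher in KP3. Across the 14582 genes, the mean difference of both siRNAs in CFPAC had a Pearson r of 0.158 and a Spearman rho of 0.223 with that in KP3. This is a description over genes, which share the libraries' depth and are not replicates, and over the 3658 genes averaging an FPKM of 10 or more r was 0.332.

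**Figure D1:**
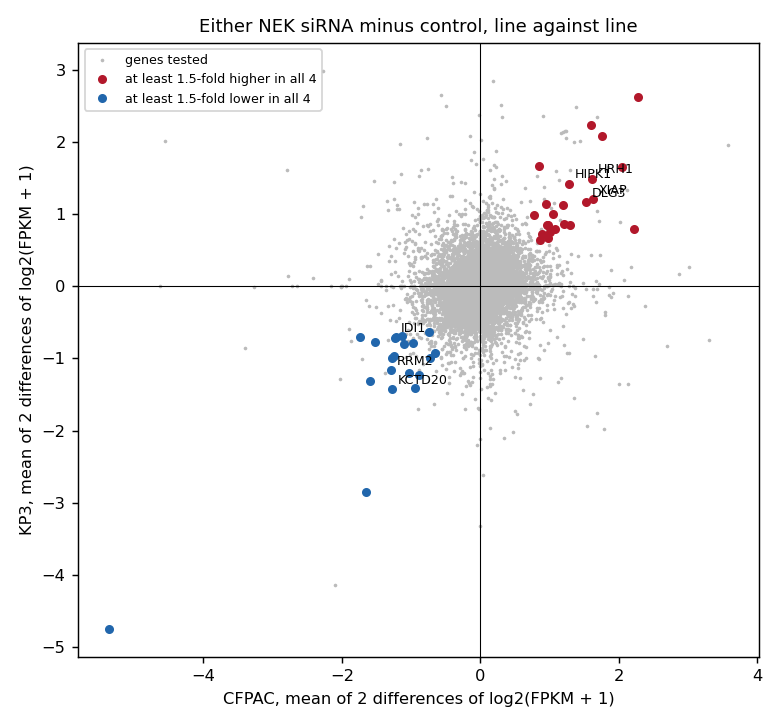
Each point is 1 of 14582 genes, placed by the mean of its NEK6 and NEK7 siRNA differences of log2(FPKM + 1) in CFPAC (horizontal) and in KP3 (vertical). Red points are the 23 genes at least 1.5-fold higher in all 4 knockdown libraries and blue points the 20 lower ones; most grey points lie in a cloud around 0 with little slope.

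The higher set was mostly protein coding and the lower set more mixed. Of the 23 higher genes 19 were protein coding (82.6%) and the other 4 were small or structured RNAs. Of the 20 lower genes 8 were protein coding (40.0%), 4 were long noncoding RNAs, 4 small RNAs, 2 pseudogenes and 1 a read-through record, beside 78.8% protein coding among all genes examined. The median of the genes' mean FPKM was 7.20 in the higher and 3.06 in the lower set, against 3.98 over all genes. DESeq2 called 19 of the 23 and 7 of the 20, beside 0.747% of all genes called higher and 0.377% called lower. Both sets were chosen on these same libraries, so the calls follow in large part from the choice and are no separate support. The edgeR adjusted p ran from 0.106 to 0.810 in the higher set and from 0.267 to 0.827 in the lower set.

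**Figure D2:**
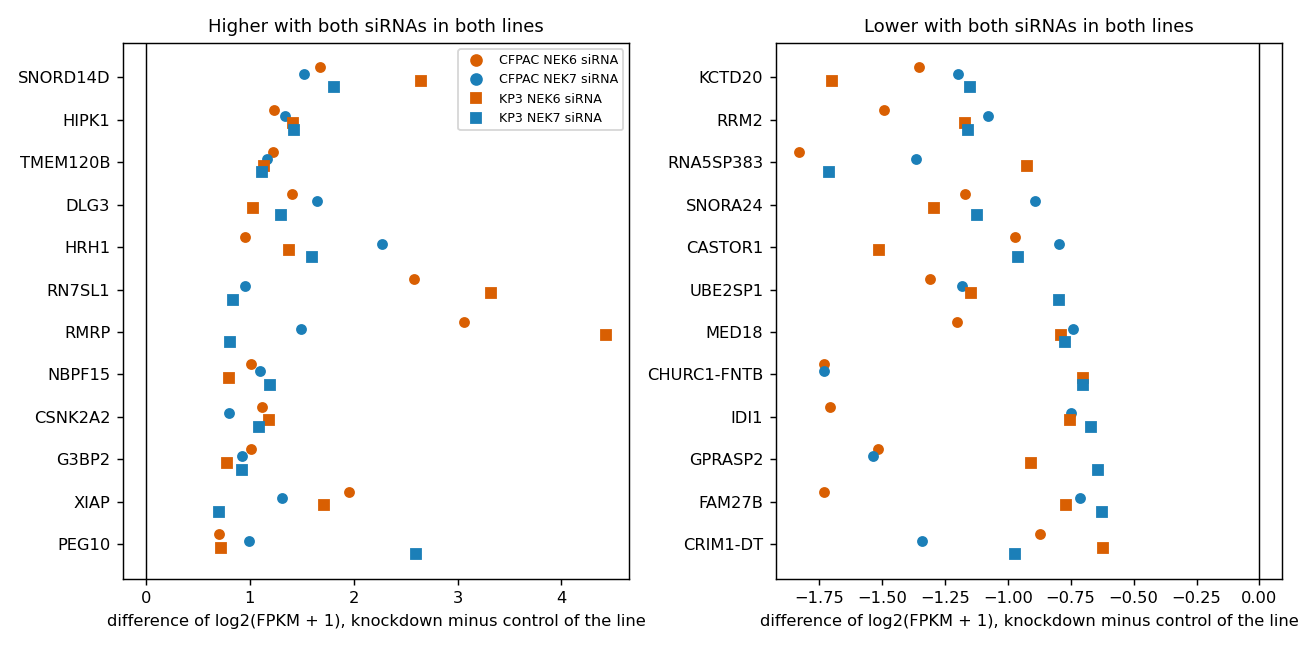
Differences of log2(FPKM + 1), knockdown minus the control of the same line, for the 12 named higher genes (left) and 12 named lower genes (right). Circles are CFPAC and squares KP3, orange is NEK6 and blue NEK7 siRNA; every point lies on one side of 0, and the 4 points of HIPK1 and TMEM120B lie closest together.

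Of the 12 named higher genes, HIPK1 and TMEM120B had the most even differences. HIPK1, a homeodomain-interacting nuclear kinase on chromosome 1, was at 1.88 FPKM in the CFPAC control, 5.78 with NEK6 and 6.27 with NEK7 siRNA, and at 1.94, 6.85 and 6.90 in the KP3 libraries in that order. The controls were alike, and all 4 knockdown libraries lay well above them with no overlap between arms. The edgeR log2 fold change was 1.73 ± 0.12 (SE derived from the F statistic, 4 against 2 libraries) with an adjusted p of 0.106. The DESeq2 adjusted p was 1.94e-53. TMEM120B, a multipass membrane protein gene on chromosome 12, had the same shape at a lower level, with 1.22, 4.18 and 3.99 FPKM in CFPAC and 1.15, 3.71 and 3.65 in KP3. Its log2 fold change was 1.70 ± 0.13 (edgeR adjusted p 0.106, DESeq2 adjusted p 2.34e-42). DLG3, a membrane-associated guanylate kinase scaffold on the X chromosome, was at 3.86, 11.9 and 14.2 FPKM in CFPAC and 1.85, 4.84 and 6.0 in KP3. CFPAC was the higher line in every condition, and the lowest knockdown library still lay above both controls. The estimate was 1.63 ± 0.16, with an edgeR adjusted p of 0.202.

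**Figure D3:**
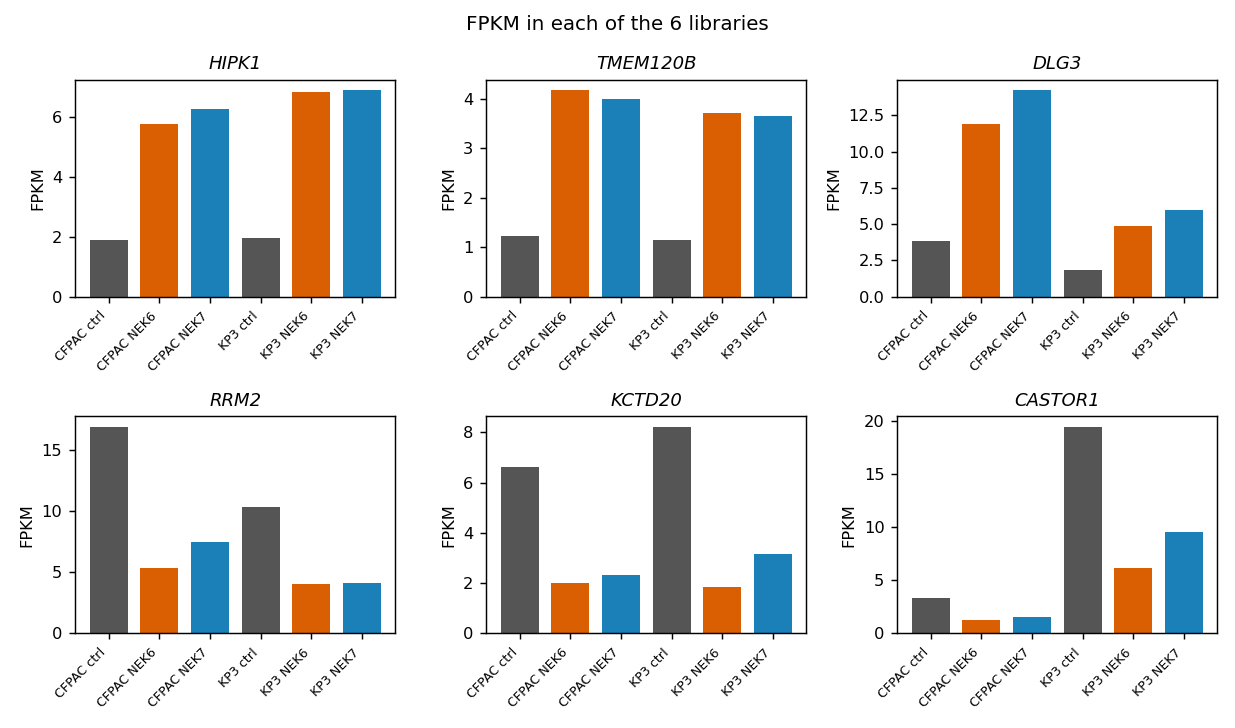
FPKM in each of the 6 libraries for 3 higher genes (HIPK1, TMEM120B, DLG3) and 3 lower genes (RRM2, KCTD20, CASTOR1); bars are single libraries with no error, grey for control, orange for NEK6 and blue for NEK7 siRNA. HIPK1 controls are at 1.88 and 1.94 and its knockdown libraries at 5.78 to 6.90, while CASTOR1 is lower than its own line's control in each line at very different levels.

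The histamine H1 receptor gene HRH1 had a wide ratio between arms. It was nearly silent in both controls, at 0.064 FPKM (25 counts) in CFPAC and 0.049 (21 counts) in KP3. It was at 1.06 and 4.15 FPKM with NEK6 and NEK7 siRNA in CFPAC and at 1.73 and 2.19 in KP3, which is 446 to 1734 counts. The edgeR log2 fold change was 5.29 ± 0.69 with an adjusted p of 0.395. XIAP, an inhibitor of caspases, was at 1.43, 8.40 and 5.03 FPKM in CFPAC and 1.13, 5.97 and 2.47 in KP3. NEK6 siRNA libraries were the highest in each line, and the arms did not overlap. The spread between siRNAs left XIAP at 2.05 ± 0.44 with an edgeR adjusted p of 0.810, and DESeq2 gave 0.000542.

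CSNK2A2, a catalytic subunit of casein kinase 2, was at 2.88, 7.40 and 5.75 FPKM in CFPAC and 4.94, 12.5 and 11.6 in KP3. G3BP2, a stress granule RNA-binding protein, was at 7.71, 16.6 and 15.5 in CFPAC and 8.48, 15.3 and 17.0 in KP3. For both genes the lowest knockdown library lay above the higher control, and the log2 fold changes were 1.23 and 0.98, each with an edgeR adjusted p of 0.395. The CSNK2A2 record overlaps AC009107, a record of the lower set on the opposite strand of chromosome 16. AC009107 had 1772, 53 and 908 counts in CFPAC and 3582, 117 and 243 in KP3, lower where CSNK2A2 was higher. Whether reads were split between these records was not tested, so the values of each are uncertain. NBPF15 was at 2.16, 5.38 and 5.80 FPKM in CFPAC and 3.57, 6.97 and 9.45 in KP3, but it belongs to a family of near-identical copies among which reads can be split, so its values are uncertain. PEG10, an imprinted gene derived from a retrotransposon, was at 1.01, 2.27 and 2.99 in CFPAC and 5.56, 9.84 and 38.9 in KP3. Its arms overlapped across lines, since the KP3 control was above both CFPAC knockdown libraries, and with a log2 fold change of 1.72 its difference was largest in the KP3 NEK7 siRNA library. The remaining named protein-coding genes of the higher set had edgeR log2 fold changes from 0.82 for NOLC1, a nucleolar phosphoprotein, to 1.27 for the adaptor SH3BP2. Between them lay GANAB, ZW10, SETD7, IFI27, PEA15, MIER1 and B4GALT1, and the clone-named AC004922 was at 2.43.

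Small structured RNAs formed the rest of the higher set. RN7SL1, the RNA of the signal recognition particle, was at 17.0, 107 and 33.8 FPKM in CFPAC and 21.6, 225 and 39.2 in KP3. RMRP, the RNA of the RNase MRP ribonucleoprotein, had 0, 147 and 36 counts in CFPAC and 4, 467 and 23 in KP3. With a floor of 3 counts per library, RMRP was at least 45.2-fold and at least 10.8-fold higher than the CFPAC control in the NEK6 and NEK7 siRNA libraries. For both RNAs the NEK6 siRNA library was the highest in each line, and the edgeR adjusted p was 0.810. Floors and counts cover counting error only. SNORD14D, a small nucleolar RNA inside a host gene, had 6, 35 and 30 counts in CFPAC and 1, 34 and 18 in KP3. Libraries were made with oligo(dT) beads, per the labels' protocols, and most of these RNAs are not polyadenylated.

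RN7SL2, a near-identical copy of RN7SL1 on chromosome 14, was the remaining small RNA of the higher set, and reads can be split between the 2 records, so the values of each are uncertain.

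Of 11 RNA polymerase I and III transcripts examined, 5 were higher in all 4 differences (45.5%, beside 14.9% of all genes) and 1, BCYRN1, was lower in all 4. RPPH1, the RNA of RNase P, had 31, 329 and 98 counts in CFPAC and 4, 157 and 19 in KP3. RN7SK, which holds the elongation factor P-TEFb inactive, had 83, 953 and 116 counts in CFPAC and 23, 380 and 116 in KP3. The list's median difference of log2(FPKM + 1) was 2.61 and 2.72 with NEK6 siRNA in CFPAC and KP3, against 0.21 and 0.81 with NEK7 siRNA. Only RMRP among them was called by DESeq2 (adjusted p 0.00391), beside 0.747% of all genes called higher, and none by edgeR.

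A nucleotide synthesis gene had the smallest edgeR p of the lower set. RRM2, the small subunit of ribonucleotide reductase that makes deoxyribonucleotides for DNA synthesis, was at 16.9 FPKM in the CFPAC control, 5.36 with NEK6 and 7.47 with NEK7 siRNA. In KP3 it was at 10.3, 4.05 and 4.09. All 4 knockdown libraries were below both controls, by similar ratios in each line. The edgeR log2 fold change was -1.39 ± 0.15 (SE, 4 against 2 libraries) with an adjusted p of 0.267, and the DESeq2 adjusted p was 1.64e-12. KCTD20, a BTB/POZ domain gene on chromosome 6, was at 6.62, 1.99 and 2.32 FPKM in CFPAC and 8.23, 1.84 and 3.16 in KP3, also without overlap. Its log2 fold change was -1.68 ± 0.22 with an edgeR adjusted p of 0.395. CASTOR1, an arginine sensor upstream of mTORC1, was at 3.34, 1.21 and 1.5 in CFPAC and at 19.4, 6.16 and 9.5 in KP3. The KP3 knockdown libraries were above the CFPAC control, so the arms separate only within a line, and the estimate was -1.31 ± 0.20 with an edgeR adjusted p of 0.553.

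RefSeq promoter windows (GRCh38.p14, 250 bases before to 50 after the start) are shown for RRM2 and TK1. The RRM2 window is at chr2:10122489-10122788 on the plus strand, that of TK1 at chr17:78187003-78187302 on the minus strand. Both genes belong to the DNA replication list and were lower in all 4. That list held 8 genes lower in all 4, and windows of the others are not shown. Capitals mark the letters CCAAT on either strand, which reads ATTGG on the opposite one: 3 matches in RRM2 and 2 in TK1. Each gene had 2 such windows, which were ranked by these matches, and the first was printed. The same letters were in 34.6% of 35116 promoter windows, which were not picked by matches. A match is thus common and describes only these bases.
RRM2: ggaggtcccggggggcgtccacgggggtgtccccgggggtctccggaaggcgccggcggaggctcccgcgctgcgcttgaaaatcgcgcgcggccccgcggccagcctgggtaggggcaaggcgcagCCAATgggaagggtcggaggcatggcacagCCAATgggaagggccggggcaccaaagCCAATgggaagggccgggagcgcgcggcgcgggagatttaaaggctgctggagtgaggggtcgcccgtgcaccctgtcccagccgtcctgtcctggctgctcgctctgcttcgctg
TK1: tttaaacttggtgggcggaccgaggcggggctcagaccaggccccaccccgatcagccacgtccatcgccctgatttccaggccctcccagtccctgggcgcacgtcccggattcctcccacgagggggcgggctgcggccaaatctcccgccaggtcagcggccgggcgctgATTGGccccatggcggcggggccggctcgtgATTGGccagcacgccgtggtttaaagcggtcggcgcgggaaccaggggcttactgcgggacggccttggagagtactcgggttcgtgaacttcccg

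TK1, thymidine kinase of the salvage pathway, was at 29.2, 20.6 and 21.5 FPKM in CFPAC and 18.0, 11.1 and 11.1 in KP3. MCM5, a subunit of the replicative helicase, was at 6.07, 4.14 and 4.54 in CFPAC and 3.47, 1.33 and 1.68 in KP3. Within each line both knockdown libraries were below the control for TK1 and MCM5, with overlap across lines, and their log2 fold changes were -0.60 ± 0.12 and -0.87 ± 0.20. RRM2, TK1 and MCM5 were the 3 of 39 DNA replication genes that DESeq2 called, all lower, beside 0.377% of all genes called lower, with adjusted p of 0.000186 for TK1 and 0.029 for MCM5, and edgeR called none (adjusted p 0.810 for both). Over the list, 8 genes were lower in all 4 (20.5%, beside 11.9% of all genes) and 4 higher (10.3%, beside 14.9%), the partner subunit gene RRM1 among the latter. Its median difference was -0.05 and -0.01 in CFPAC with NEK6 and NEK7 siRNA and -0.15 and 0.05 in KP3.

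MED18, a subunit of the Mediator complex, was at 5.90, 2.01 and 3.13 FPKM in CFPAC and 5.53, 2.78 and 2.82 in KP3, with no overlap of arms and a log2 fold change of -1.11. The other records of the lower set are less certain. CHURC1-FNTB, a read-through record across a pair of neighbouring genes, had 336 and 100 counts in the CFPAC and KP3 controls and 0 in all 4 knockdown libraries, at least 122-fold and at least 125-fold lower in CFPAC and at least 31.1-fold and at least 34.7-fold lower in KP3 with NEK6 and NEK7 siRNA. Its reads overlap those of CHURC1 and FNTB, so its values are uncertain. GPRASP2, a sorting protein of G protein-coupled receptors, had 526, 6 and 0 counts in CFPAC and 268, 0 and 66 in KP3. UBE2SP1, a processed pseudogene of UBE2S, had 224, 68 and 79 counts in CFPAC and 285, 94 and 146 in KP3, and its reads can belong to the parent gene. SNORA24, RNA5SP383, FAM27B and CRIM1-DT were small RNA, pseudogene, multicopy or antisense-type records of 8 to 60, 0 to 27, 7 to 59 and 15 to 121 counts per library, and strand use in counting was not given in the sources used here. Also in the lower set were PRICKLE4, RNU1-39P, MIR103A2 and 5 clone-named records, among them AC009107, which overlaps CSNK2A2.

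Many genes of sterol synthesis were lower in all 4 differences. IDI1, the isomerase of isopentenyl diphosphate, was at 9.71, 2.28 and 5.37 FPKM in CFPAC and 26.0, 15.0 and 16.01 in KP3. MSMO1, a sterol methyl oxidase, was at 14.5, 9.31 and 10.5 in CFPAC and 75.5, 43.8 and 59.1 in KP3. For both genes each knockdown library was below its line's control, and lines overlapped because KP3 was the higher line throughout. The log2 fold changes were -1.07 and -0.57, each with an edgeR adjusted p of 0.810. Of the 26 cholesterol synthesis genes examined, 13 were lower in all 4 differences (50%, beside 11.9% of all genes), among them HMGCS1, SQLE and FDFT1, and 1 was higher, GGPS1. At an unadjusted edgeR p under 0.05, 4 were lower, beside 2.42% of all genes, while 0 passed adjustment with edgeR and 0 were called by DESeq2. The median difference was -0.10 and -0.15 in CFPAC and -0.38 and -0.13 in KP3 with NEK6 and NEK7 siRNA, against medians of 0 to 0.03 over all genes.

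**Figure D4:**
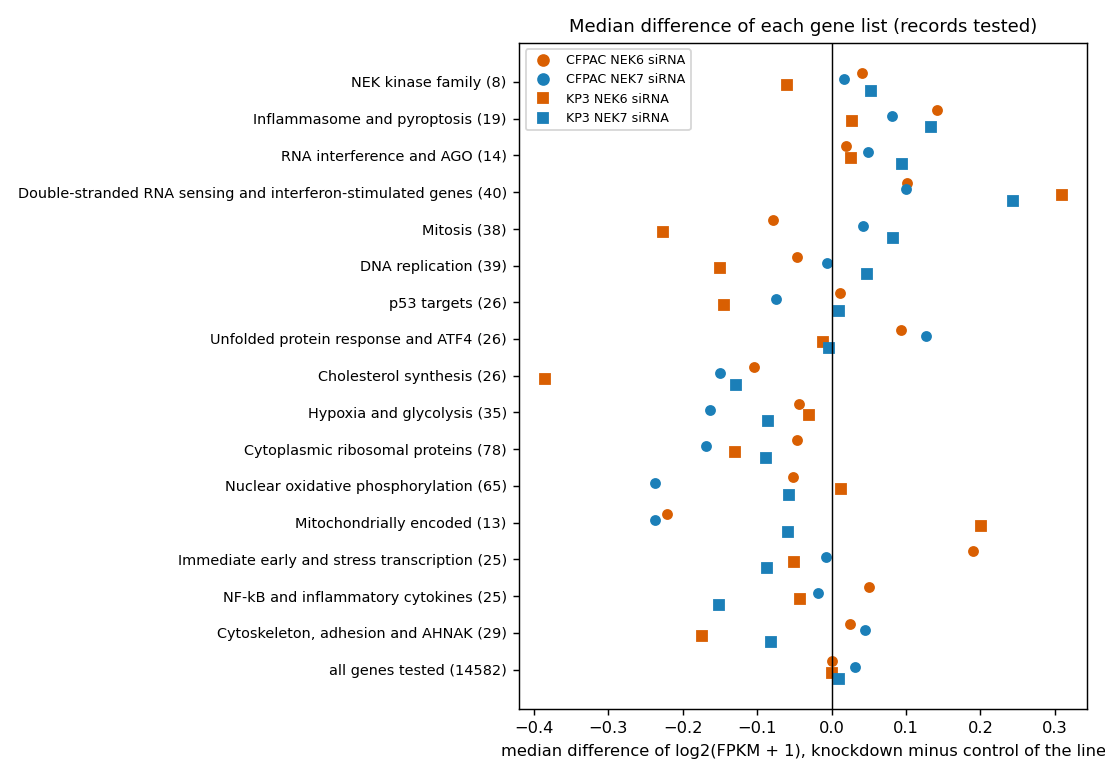
Median difference of log2(FPKM + 1), knockdown minus the control of the same line, over the genes of each of 16 lists and over all 14582 genes (bottom), with the number of records in brackets; circles are CFPAC, squares KP3, orange NEK6 and blue NEK7 siRNA. The cholesterol, ribosomal protein and hypoxia and glycolysis lists lie below 0 in all 4 libraries, and the double-stranded RNA and interferon, inflammasome and pyroptosis, and RNA interference lists lie above 0, while mitosis lies on both sides; the RNA polymerase I and III list, with medians of 0.21 to 2.72, is left out to keep the scale.

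Ribosomal protein genes were a second list on the lower side, with 36 of 78 lower in all 4 (46.2%, beside 11.9% of all genes) and 3 higher. The differences were small, with list medians of -0.05 and -0.17 in CFPAC and -0.13 and -0.09 in KP3, and DESeq2 called 0 of them. RPL21 was at 89.6, 69.3 and 84.6 FPKM in CFPAC and 256, 171 and 176 in KP3, while RPL39, of the same large subunit, was at 152, 215 and 161 in CFPAC and 159, 246 and 225 in KP3. Many ribosomal protein genes have processed pseudogenes that can share their reads. Of 65 nuclear oxidative phosphorylation genes 10 were lower in all 4 (15.4%, beside 11.9%) and 5 higher (7.69%, beside 14.9%), and 1 was called lower by DESeq2, beside 0.377% of all genes. It was NDUFS6, a complex I subunit, at 69.6, 51.0 and 52.8 FPKM in CFPAC and 60.7, 44.0 and 42.0 in KP3, below both controls in all 4.

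Genes of double-stranded RNA sensing and the interferon response, which siRNA duplexes can engage, lay on the higher side by their median in all 4 libraries. Of 40 examined, 16 were higher in all 4 differences (40.0%, beside 14.9% of all genes) and 0 lower, including the sensors IFIH1, DDX58 and TLR3, the kinase EIF2AK2 and the synthetases OAS1, OAS2 and OAS3. The control libraries are titled as siRNA-treated too, and whether siRNA duplexes contribute to these differences was not tested. The median difference was 0.10 and 0.10 in CFPAC and 0.31 and 0.24 in KP3 with NEK6 and NEK7 siRNA. IFI27, an interferon-inducible mitochondrial protein, was at 32.8, 78.5 and 75.3 FPKM in CFPAC and 4.95, 11.7 and 8.16 in KP3, the only one of the 40 with 1.5-fold differences in all 4. Its log2 fold change was 1.10 ± 0.18 with an edgeR adjusted p of 0.611 and a DESeq2 adjusted p of 4.15e-05. OAS2 was at 130, 139 and 165 FPKM in CFPAC but only at 0.566, 1.04 and 1.36 in KP3. RSAD2 and HERC5 were below their control with NEK7 siRNA in CFPAC, at 51.2 against 55.6 and 9.19 against 9.37 FPKM. Of the 40 genes, 4 had an unadjusted edgeR p under 0.05, all higher, beside 3.62% of all genes, and 1 was called higher by DESeq2, beside 0.747%.

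Mitotic genes, the setting in which both kinases act, had medians on both sides of 0. Of 38 examined, 9 were lower in all 4 (23.7%, beside 11.9% of all genes) and 3 higher (7.89%). AURKB, the kinase of the chromosomal passenger complex, was at 10.7, 8.34 and 8.23 FPKM in CFPAC and 15.4, 11.03 and 11.1 in KP3, with a log2 fold change of -0.44 ± 0.12. It was the 1 of 38 mitotic genes called by DESeq2 (adjusted p 0.0135), beside 0.377% of all genes called lower, and its edgeR adjusted p was 0.810. ANLN, which organizes the cytokinetic ring, was at 38.4, 34.9 and 24.3 FPKM in CFPAC and 32.5, 22.2 and 22.3 in KP3. The list median was -0.08 and -0.23 with NEK6 siRNA in CFPAC and KP3 and 0.04 and 0.08 with NEK7 siRNA. Among the 8 NEK kinases examined, 2 were higher in all 4, NEK1 and NEK9 (25.0%, beside 14.9% of all genes). NEK1 was at 2.23, 3.34 and 2.73 FPKM in CFPAC and 1.29, 1.94 and 1.89 in KP3, with a log2 fold change of 0.49 ± 0.16 and an edgeR adjusted p of 0.810.

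Inflammasome and pyroptosis genes had small median differences, and single genes varied by library. Of 19 examined, 6 were higher in all 4 (31.6%, beside 14.9% of all genes) and 1 lower. GSDMC, a gasdermin gene higher in all 4, had the largest log2 fold change of those named, 1.66 ± 0.88 (edgeR adjusted p 0.827). It was at 1.09, 2.66 and 1.73 FPKM in CFPAC, but had only 0, 4 and 17 counts in KP3. IL1B, the cytokine that caspase-1 cleaves, was at 19.7, 27.2 and 16.2 FPKM in CFPAC and at most 0.235 in KP3. CASP1 was at 3.22, 5.34 and 4.45 in CFPAC and at most 0.175 in KP3, where counts were 16, 47 and 0. TXNIP, which binds NLRP3, was at 87.1, 104 and 101 FPKM in CFPAC and 40.0, 41.0 and 108 in KP3, so that 1 library had by far the largest difference. DPP9, a dipeptidyl peptidase that restrains the NLRP1 and CARD8 inflammasomes, was the gene lower in all 4, and it was picked out after its values were seen. Its log2 fold change was -0.51, with an edgeR adjusted p of 0.810 and a DESeq2 adjusted p of 0.0342. DESeq2 called 1 of the 19 genes lower, beside 0.377% of all genes. The list median was 0.14 and 0.08 in CFPAC and 0.03 and 0.13 in KP3.

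Shares of genes with 1 direction in all 4 varied among the other lists. Of 26 p53 targets 7 were lower in all 4 (26.9%, beside 11.9%), among them CDKN1A at 23.4, 14.6 and 22.7 FPKM in CFPAC and 11.7, 9.26 and 7.48 in KP3. SLC7A11, the cystine transporter of the ATF4 response, was at 15.1, 19.1 and 23.1 FPKM in CFPAC and 0.688, 2.17 and 2.19 in KP3, and 4 of its 26 list members were higher in all 4 (15.4%), near the 14.9% of all genes. Of 35 hypoxia and glycolysis genes 9 were lower in all 4 (25.7%, beside 11.9%) and 2 higher. The list median was -0.04 and -0.16 in CFPAC and -0.03 and -0.09 in KP3. DESeq2 called 1 of the 35 lower, ALDOC, beside 0.377% of all genes called lower. ALDOC was at 5.48, 3.92 and 3.50 FPKM in CFPAC and 35.3, 26.7 and 25.6 in KP3. ZFP36, which destabilizes AU-rich mRNAs, was at 34.3, 9.97 and 9.65 in CFPAC and 54.5, 16.2 and 43.0 in KP3, close to control in the KP3 NEK7 siRNA library alone. Of 25 NF-kB genes 4 were lower in all 4 (16%, beside 11.9%) and 2 higher (8.0%, beside 14.9%). None of the 14 RNA interference genes had an unadjusted edgeR p under 0.05, beside 6.04% of all genes, which says little for a list this short. Of the 14, 3 were higher in all 4 (21.4%, beside 14.9%). Of 13 mitochondrially encoded genes only MT-ATP8 had 1 direction in all 4, lower.

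AHNAK, a very large scaffold protein, was low in 3 of the 4 knockdown libraries. It was at 95.8, 3.75 and 106 FPKM in CFPAC and 80.2, 3.75 and 3.49 in KP3, so the CFPAC NEK7 siRNA library was at its control's level. The log2 fold change was -3.07 ± 1.42 with an edgeR adjusted p of 0.820. LASP1, an actin-binding adaptor, likewise was at 48.1, 9.70 and 12.5 in CFPAC and 43.8, 6.53 and 43.9 in KP3, with the KP3 NEK7 siRNA library at the control's level. Neither belongs to the set shared by both siRNAs and both lines. Of the 29 cytoskeleton and adhesion genes 4 were lower in all 4 (13.8%, beside 11.9%) and 0 higher. DESeq2 called 1 of the 29 lower, beside 0.377% of all genes. It was ITGA3, an integrin subunit named after its values were seen, with a log2 fold change of -0.44.

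Whether the effect of knockdown differed between the lines was tested as an interaction. edgeR called 0 of 14582 genes (0%). It gave 552 (3.79%) below 0.05 before adjustment, and DESeq2 called 102 (0.699%). In the 6 genes with the smallest p per direction, the control library of a line stood apart from both of its knockdown libraries. The error of this test comes from the difference between the siRNAs within a line. The pattern therefore follows in large part from the ranking by p and is no separate support. STX16, a SNARE of the Golgi, was at 17.3, 6.13 and 8.40 FPKM in CFPAC and 7.36, 28.8 and 35.0 in KP3. PRRG1, a transmembrane Gla protein, was at 1.23, 6.11 and 5.01 in CFPAC and 9.17, 1.57 and 1.75 in KP3. These 2 genes went opposite ways in the lines. DYRK2, a dual-specificity kinase, was level in CFPAC at 5.57, 5.53 and 4.50 but at 0.103, 2.32 and 3.16 in KP3. HNRNPH2, a splicing regulator, was at 42.9, 45.1 and 53.1 in CFPAC and 8.13, 58.1 and 71.2 in KP3. MOB1B, a Hippo pathway adaptor, was at 0.149, 2.31 and 1.66 in CFPAC and 4.97, 4.81 and 4.94 in KP3. ZNF8, a zinc finger gene, had 0 counts in the CFPAC control and 709 and 681 in its knockdown libraries, at least 218-fold and at least 204-fold higher, against 516, 476 and 627 in KP3. The edgeR adjusted p of the interaction ran from 0.325 for ZNF8 to 0.442 for HNRNPH2, STX16 and MOB1B.

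**Figure D5:**
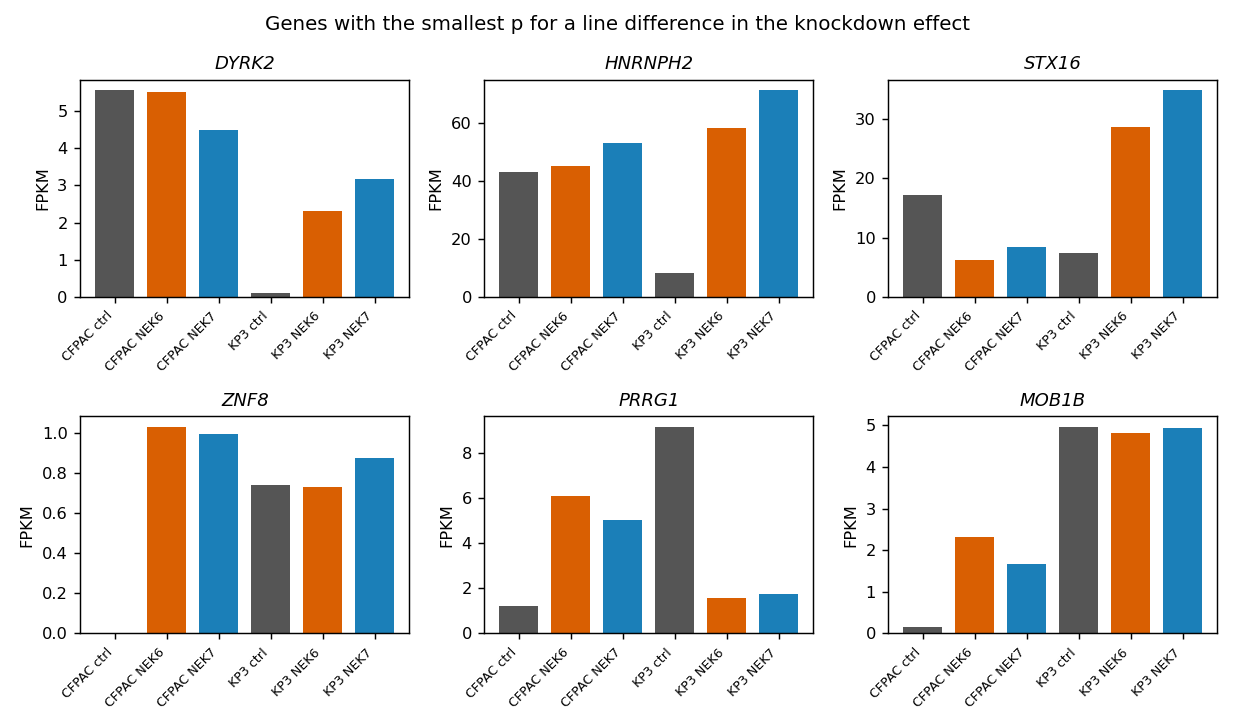
FPKM in each of the 6 libraries for the 6 genes with the smallest interaction p, 3 per direction; bars are single libraries with no error, grey for control, orange for NEK6 and blue for NEK7 siRNA. In each panel the grey bar of at least 1 line stands apart from the orange and blue bars of that line, which follows in large part from the choice by p. HNRNPH2 and DYRK2 in CFPAC and MOB1B and ZNF8 in KP3 are close to level.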

How the data were processed

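Libraries of CFPAC and KP3 cells began with 5 ug of RNA and oligo(dT) selection, per the labels' protocols. The submitters' processing notes name edgeR, StringTie 1.3.4d, HISAT2 2.0.4 and cutadapt 1.9 without their roles, and the build was not given in the sources used here. The authors deposited whole-number counts per gene and library, not normalized, and FPKM for the same genes, which per the file headers and the unit's definition are scaled for length and library size. The design had named limma on FPKM as the fallback, and since counts were deposited they were tested.

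Counts of the 14582 records with FPKM of at least 1 in any library were fitted in edgeR 4.0.16 (R 4.3.3), with TMM factors and quasi-likelihood F tests of knockdown with cell line as a term, 3 residual degrees of freedom (2 for the interaction). Benjamini-Hochberg adjustment ran over all 14582 genes with a threshold of 0.05. Each SE given was derived from the log2 fold change and its F statistic, whose variance estimate borrows from all genes. It is not a plain spread between libraries. Differences within a line used log2(FPKM + 1), which understates the change of low genes. Concordant genes had all 4 differences at or beyond 1.5-fold. The fits were tested on simulated data, where DESeq2 made more false calls than edgeR and also detected more of the true differences. A gene at 0 counts was bounded with a floor of 3 counts per library.

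The named genes were the targets, 12 per direction ranked by the smallest of the 4 differences, up to 4 per list with the largest edgeR fold change, and 3 per direction of the interaction by p. Clone names and genes under 50 counts in all were skipped. The remaining genes of the concordant sets, and list members given only by name, were added to account for each set. Members and lists were chosen with earlier results of these data known. Alternatives were DESeq2 1.42.0 and its size factors, limma 3.58.1, other filters, a pseudocount of 0.1, TMM-scaled counts, no line term, siRNA as 3 levels, each line alone and each library left out. Records sharing a name (1971 names) were kept apart by id. Some list genes, 1 gene that the naming rule took among them, and some sequences are not reported here. Tables and figures used Python 3.11.15, numpy 2.4.6, pandas 2.3.3 and matplotlib 3.10.9.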

Additional observations from a re-analysis of the deposited data

Results flagged for a closer look

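In 9 of 94 named genes, 1 of the 4 knockdown libraries had a difference of log2(FPKM + 1) from its control that stood far from the other 3 by Dixon's ratio test at its usual critical value. Chance alone marks about 1 in 20 such groups of 4, and the genes share libraries. In the CFPAC NEK6 siRNA library the difference was -1.71 for IDI1, -1.20 for MED18 and -1.73 for FAM27B, each further below control than in the other 3 libraries. With NEK7 siRNA in KP3 the difference was 2.60 for PEG10 and 1.42 for TXNIP, above the others, and -0.33 for ZFP36, closer to control than the others. In the KP3 NEK6 siRNA library it was 0.16 for MT-ND4 and -0.42 for ITGA6, with the opposite sign to the other 3. In the CFPAC NEK7 siRNA library it was 0.14 for AHNAK, while the other 3 were more than 4 below control.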

How the results depend on the processing

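The edgeR count of 0 genes for either NEK siRNA against control also held with DESeq2 size factors, other filters, limma and siRNA as 3 levels. DESeq2, which made more false calls on simulated data, called 164. Without the cell line term the count was 0 too, but the difference between the lines then enters the error. Genes at an unadjusted p under 0.05 fell from 881 to 97 with edgeR. Each line alone has 1 control library, so those fits could hardly call a gene and are no check of this count. Leaving out 1 library gave 0 to 1 gene, and the 1 gene was AHNAK, lower, without the CFPAC NEK7 siRNA library. For the difference between lines edgeR called 0 and DESeq2 102. The cause of the gap between tools was not tested. The concordant set of 43 genes became 145 with a pseudocount of 0.1 (74 higher, 71 lower, all 43 among them), 22 with a mean FPKM of at least 5 (17 higher, 5 lower) and 57 with TMM-scaled CPM in place of FPKM (33 higher, 24 lower), of which 32 were shared. The 5 lower genes left at the higher filter show that most of the lower set had low levels. Requiring 3 in place of 4 differences, by leaving out 1 knockdown library, gave 65 to 85 genes: 65 without CFPAC NEK6, 85 without CFPAC NEK7, 81 without KP3 NEK6 and 73 without KP3 NEK7 siRNA. With no control library in a line no difference can be formed, so those were not run for this set.

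Of 94 named genes, none passed a threshold under edgeR or limma settings except AHNAK as above, and 20 passed with DESeq2. The sign of the estimate changed in 1 to 5 genes under 7 settings, among them STX16 (-1.28 in CFPAC alone against 0.07) and PRRG1 (2.13 in CFPAC alone against -0.84). No paired analysis was possible because each of the 6 conditions has 1 library. The cell line was a term in the reported fits. Depth was even between libraries. The limit is 1 library per condition.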
